A study of Rattus norvegicus with 6 samples.

Results

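MicroRNA genes were examined in a chromatin immunoprecipitation and sequencing (ChIP-seq) series on α1ACT, the transcription factor encoded within the calcium channel gene CACNA1A. They were taken by symbol from the authors' annotated table, which holds the peaks that the α1ACT line had and the empty-vector line lacked. Each of these peaks is in the list of the α1ACT library made with the antibody labelled 1804. Every gene whose symbol starts with Mir and a digit, or with Mirlet7, was taken. This gave 248 of the 14390 genes in the table, with 3346 of its 159452 peaks. Of the 248 members, 247 are genes of biotype miRNA in RefSeq, which holds 466 such rat genes, and 1, Mir155hg, is the transcript that carries Mir155. A peak is assigned to the gene with the nearest start, so each member has at least 1 peak by the way it was chosen, and genes of a tight cluster compete for the same peaks.

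The cells were PC12, a rat tumour line of the adrenal medulla (pheochromocytoma), at passages 18 to 20. One line stably expressed human α1ACT, which the labels title Q11, and the other the pCDNA3 vector alone. Each line gave 1 library with the antibody labelled 1804, 1 with M2, an anti-FLAG antibody, and 1 input. Each of the 6 groups therefore has 1 library, so values have no error between replicates and conditions are not tested against each other. The series' design text speaks of tissues at day 3, whereas the sample labels name PC12 cells. The labels do not say what 1804 recognises or whether a line is a single clone. Peaks do not measure expression, so the PC12 label was not checked against markers. All coordinates are those of the deposited files, on build rn5, 1-based.

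A microRNA is cut from a hairpin within a longer primary transcript and pairs with messenger RNAs through its seed, bases 2 to 8, to lower their translation and stability. Neurons and endocrine cells carry characteristic sets: miR-124, miR-9 and miR-137 in neurons, miR-375 in endocrine cells, and miR-132 with miR-212 from a single transcript that responds to neuronal activity. The annotated start of a microRNA gene in the table is an end of the hairpin and not the promoter of the primary transcript, which can lie many kilobases away or be the promoter of a host gene. Of the 248 members, 245 spanned at most 150 bp, with Mir155hg and the long annotated spans of Mir6216 and Mir6324 as the exceptions.

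The mature sequences below belong to members with a peak near or over the hairpin, and they are grouped by what the hairpins yield. The sequences are from RefSeq (GRCr8), which held a mature sequence for 228 members and, for fewer, a hairpin. Each is written 5′ to 3′, with the seed in capitals. The first set comes from genes with high-signal peaks or with known roles in endocrine cells and neurons.
miR-375-3p: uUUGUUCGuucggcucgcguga
let-7i-5p: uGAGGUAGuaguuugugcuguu
miR-25-3p: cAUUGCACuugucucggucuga
miR-212-3p: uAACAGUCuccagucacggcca
miR-137-3p: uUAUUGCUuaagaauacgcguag
miR-34b-5p: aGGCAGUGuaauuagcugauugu

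The next set shows seeds shared between members. Among the 374 mature sequences of the members, 39 seeds were shared by 2 or more members. In 3 of those 39, at least 2 members had an assigned peak within 1000 bp of the start. These were both arms of miR-9, whose copies Mir9-1 and Mir9-3 had one and Mir9-2 did not, and the 3p arm of miR-193a and miR-193b. The count depends on the assignment. Mir3597-1 and Mir3597-3, antisense to Mir9-1 and Mir9-3, share the miR-9b-5p seed. Neither was assigned a peak that near, but both had one when the assignment was ignored.
miR-9a-5p: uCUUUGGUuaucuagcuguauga
miR-9a-3p: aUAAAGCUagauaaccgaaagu
miR-193a-3p: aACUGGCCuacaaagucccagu
miR-193b-3p: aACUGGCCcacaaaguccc

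Hairpins are shown for some of the genes with a peak over the hairpin itself, with the mature arms in capitals. Mir137, Mir152 and Mir187 also had such a peak and are not shown. Mir9-3, whose nearest peak lay just upstream, is given beside Mir9-1 because both yield the same mature sequences from different hairpins.
Mirlet7i: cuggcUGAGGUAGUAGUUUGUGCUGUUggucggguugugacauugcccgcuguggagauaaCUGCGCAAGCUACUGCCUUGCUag
Mir9-1: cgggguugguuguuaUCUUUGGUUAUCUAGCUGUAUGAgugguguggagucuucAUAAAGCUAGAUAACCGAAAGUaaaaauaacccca
Mir9-3: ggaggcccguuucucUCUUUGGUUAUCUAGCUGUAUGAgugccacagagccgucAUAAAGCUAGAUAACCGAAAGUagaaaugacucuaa
Mir25: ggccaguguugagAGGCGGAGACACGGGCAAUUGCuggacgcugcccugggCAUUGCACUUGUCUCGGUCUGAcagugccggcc
Mir1956: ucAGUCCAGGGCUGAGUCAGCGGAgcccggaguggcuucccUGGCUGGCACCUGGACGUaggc

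A smaller share of microRNA genes than of other genes carried an α1ACT-only peak close to the annotated start. Of the 248 members, 49 had an assigned peak within 1000 bp of it (19.8%, exact 95% binomial interval 15.0 to 25.3), against 6170 of the 14142 other genes (43.6%, 42.8 to 44.5). Over the whole table the share was 43.2%. These intervals cover counting error only, because genes of 1 library are not replicates. The nearest peak lay within 200 bp of the start in 24 members, between there and 1 kb in 25, between 1 and 10 kb in 86, between 10 and 100 kb in 111, and farther in 2. Within 10 kb the count was 135 (54.4%, 48.0 to 60.7), against 10223 other genes (72.3%, 71.5 to 73.0), with 72% over the whole table. The median of the nearest distance was 8864 bp in microRNA genes and 2353 bp in other genes. The members closest to the 1000 bp limit were Mir26b, Mir155hg and Mir702 inside it, at 983, 991 and 995 bp, and Mir762, Mir339 and Mir6327 outside it, at 1095, 1192 and 1199 bp.

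**Figure D1:**
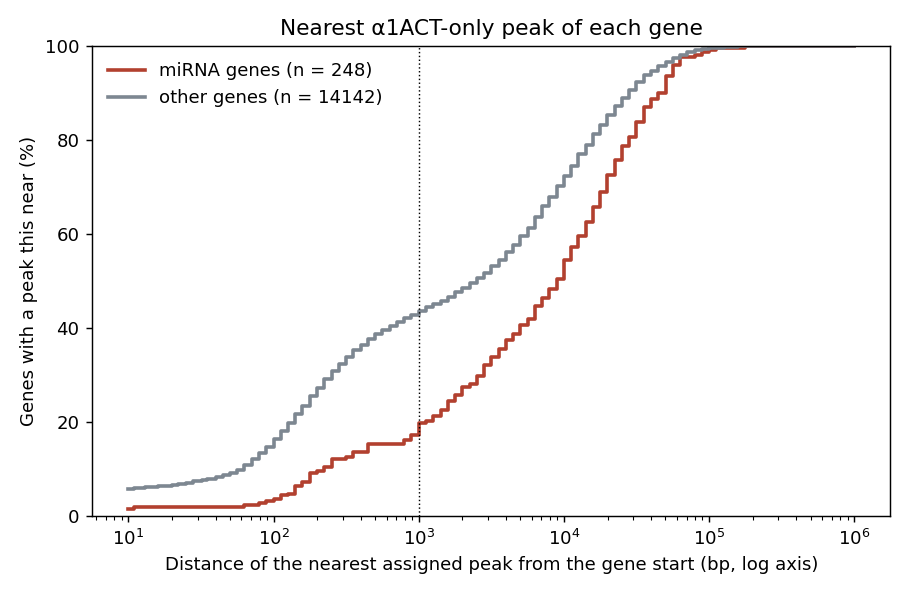
Share of genes (y axis, %) whose nearest assigned α1ACT-only peak lies within the distance on the x axis (bp, log axis), for 248 microRNA genes and 14142 other genes; the dotted line marks 1000 bp. The curve of the microRNA genes runs below that of the other genes at each distance up to 10 kb, with 19.8% against 43.6% at 1000 bp.

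How much lower the share was depended on the genes it was set against. Other genes were longer, with a median of 17558 bp against 87.5 bp in microRNA genes. When only peaks upstream of the start counted, 33 microRNA genes (13.3%, 9.34 to 18.2) and 2585 other genes (18.3%, 17.6 to 18.9) had one, with 18.2% over the whole table. Among the 1119 other genes no longer than 1000 bp, a group set up with the data in view, 118 had a peak within 1000 bp (10.55%), so that the share in microRNA genes was 9.21 percentage points higher. Those short genes were mostly genes with olfactory receptor symbols, of which 41 of 798 (5.14%) had a peak near the start, against 77 of the 321 others (24.0%).

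Peaks were still denser at the hairpins than around them. Counting every peak of the α1ACT 1804 list by its centre, whichever gene it was assigned to, there were 0.150 peaks per kb within 1 kb of the 257 microRNA gene starts. The density was 0.0837 from 1 to 3 kb, 0.0545 from 3 to 10 kb and 0.0608 from 50 to 100 kb, so the innermost ring held 2.46 times the density of the outermost. For the 14595 other starts the innermost ring held 0.331 peaks per kb, 5.44 times the outermost, and from 1 to 3 kb the density was 0.0589. From 1 to 3 kb the density was thus 1.38 times the outermost ring's around microRNA starts and 0.968 times around other starts. Starts of neighbouring microRNA genes can share a peak, and the difference between both sets was not tested.

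**Figure D2:**
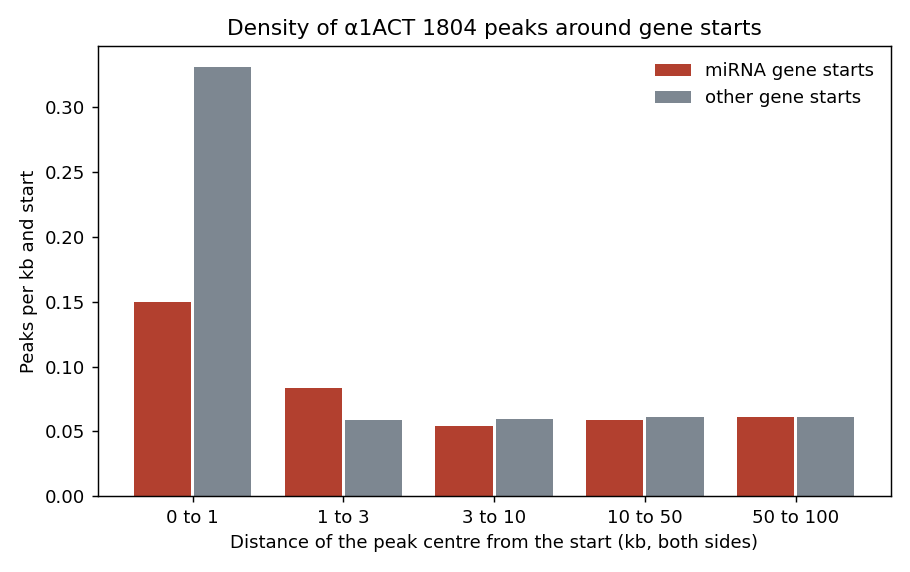
Peaks of the α1ACT 1804 list per kb and start (y axis) by distance of the peak centre from the start (x axis, kb, both sides together), for microRNA gene starts and other gene starts. The first bar pair stands at 0.150 and 0.331, the second at 0.0837 and 0.0589, and the outer rings lie between 0.0545 and 0.0613.

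The 61 peaks within 1000 bp of a microRNA start made up 1.82% of the members' peaks (1.40 to 2.34), against 5.84% of the peaks of other genes (5.72 to 5.96). Most lay upstream: 37 were upstream of the start, 21 downstream and 3 over it. The upstream share was 60.7% (47.3 to 72.9), against 33.2% (32.2 to 34.1) for the peaks near the starts of other genes. Distances are the authors', and on the plus strand they run to the far edge of the 56 bp peak, which makes them 55 bp longer than the gap. For 15 of the 61 peaks another gene start of the table lay within 1000 bp as well: that of another microRNA gene for 8, and for 7 that of a gene that is not a microRNA gene, among them Eif4e at the Mir1956 hairpin, Smim13 at Mir3566 and Copz2, the host gene of Mir152. For 37 of the 49 genes no peak near the start had another gene start of the table that close. For 44 no start of a gene other than a microRNA gene lay that close. Genes without an assigned peak, among them RefSeq microRNA genes that are not members, have no start in the table. The counts of 37 and 44 are therefore upper limits.

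The authors' signal ranks peaks within a list, and its scale between libraries is not stated. Its median was 3.73 for the 61 peaks near a microRNA start (95% interval of the median 3.12 to 4.01) and 2.98 for the members' other peaks (2.96 to 3.01). Near the starts of other genes it was 4.36 (4.28 to 4.44). Of the 61 peaks, 17 were in the upper 10% of the table by signal (27.9%, 17.1 to 40.8), against 3386 of 9114 near other starts (37.2%, 36.2 to 38.2). They belonged to 14 of the 248 microRNA genes, whereas 2833 of all 14390 genes of the table (19.7%) had such a peak.

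**Figure D3:**
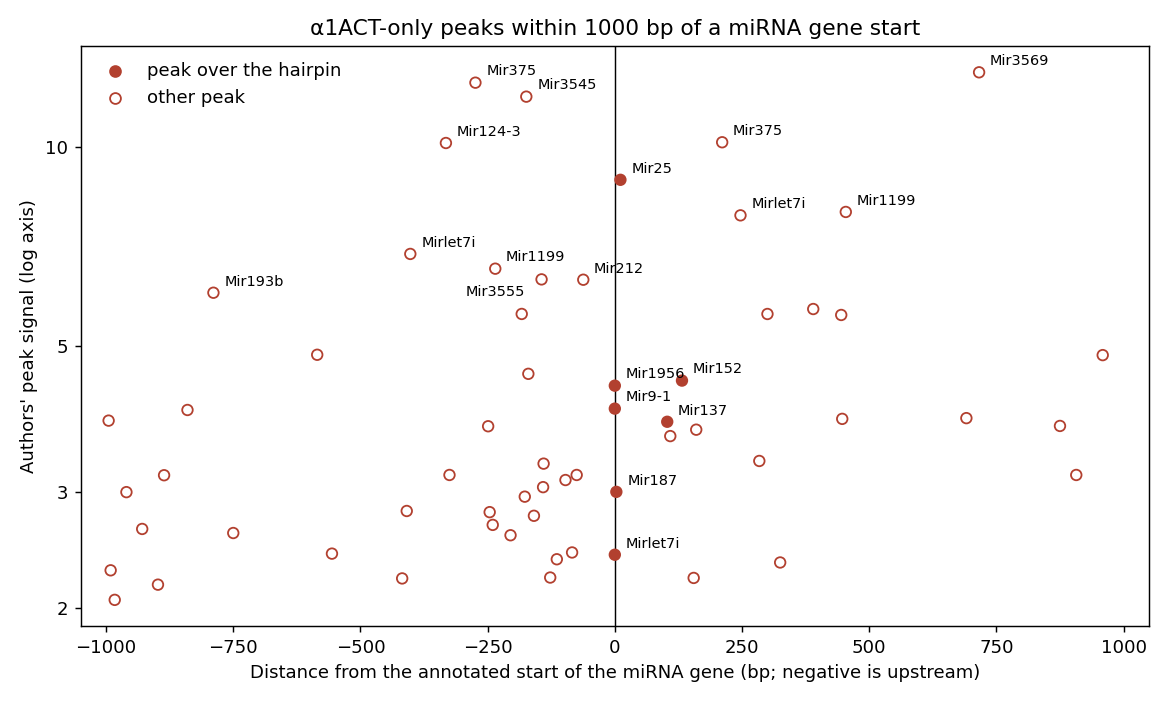
Signal (y axis, log axis) of the 61 α1ACT-only peaks within 1000 bp of a microRNA gene start by signed distance (x axis, bp, negative is upstream); filled points lie over the hairpin. The highest points are Mir3569 at 13.0, Mir375 at 12.5 and Mir3545 at 11.9, and more points lie left of the start than right of it.

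Mir375, the gene of a microRNA abundant in pancreatic islets and neuroendocrine cells, had 3 peaks within 1000 bp of its start, on both sides of the hairpin. The highest, at chr9:81930644-81930699 and 274 bp upstream, had a signal of 12.5. The next, at chr9:81930104-81930159 and 211 bp downstream, had 10.2, and that at chr9:81930955-81931010, 585 bp upstream, had 4.84. The first was above 99.7% of the peaks of the table. The nearest listed start of a gene that is not a microRNA gene, that of the transcription factor gene Fev, lay 15.2 kb from it.

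Mir3569 had the highest signal of the 61, 13.0, at chr1:90198103-90198158, which is 716 bp past the start, with the start of Zbtb32 1.90 kb away. Mir3545 followed Mir375 with 11.9, at chr6:145714907-145714962, 174 bp upstream. Its hairpin lies antisense to that of Mir203, a microRNA of epidermal differentiation, which was itself assigned a weaker peak of 2.21 on the other side, 418 bp upstream of its start, and one of 5.68 farther out, at 2538 bp upstream. ChIP has no strand, so a peak cannot be given to either gene of such a pair.

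Among the neuronal genes, Mir124-3 had a peak of signal 10.2 at chr3:180115794-180115849, 332 bp upstream of the start and above 99.3% of the table. The other copies of this neuron-enriched microRNA had none within 1000 bp: the nearest lay 1944 bp upstream of Mir124-2, with a signal of 2.34, and 3171 bp upstream of Mir124-1, with 2.80. Mir9-1 had a peak of signal 4.01 over the hairpin (chr2:206985794-206985849), and another 556 bp upstream with 2.41. The peak of Mir9-3, 84 bp upstream on chromosome 1, had 2.42, and the nearest of Mir9-2 lay 9239 bp upstream with 2.60. Thus by distance the copies of one mature sequence differed: 1 of 3 Mir124 genes and 2 of 3 Mir9 genes had a peak near the hairpin. The Mir9-3 peak was above only 16.3% of the table and lower than the nearest of Mir9-2. The lowest signal in the α1ACT 1804 list was 2.00, so a difference that rests on so weak a peak of 1 library is uncertain.

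Mir137 had a peak of signal 3.83 over its hairpin (chr2:239707811-239707866), but its highest lay 3482 bp upstream, with 10.7. Further peaks stood 1790 bp upstream, with 2.91, and 8159 bp upstream, with 5.99. Mir212 had 6.29 at 62 bp upstream and 2.60 at 750 bp upstream, on chromosome 10. Mir129-2 had 3.77 at 875 bp downstream. No other neuronal member had a peak within 1000 bp: Mir128-1, Mir128-2, Mir129-1, Mir138-1, Mir138-2, Mir153, Mir218-1 and Mir218-2 had their nearest between 4698 and 54913 bp.

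Mirlet7i, of the let-7 family that marks differentiated cells, had 3 peaks within 1000 bp on chromosome 7. The one over the hairpin (chr7:67000206-67000261) was weak, with a signal of 2.41, and it was flanked by peaks of 6.89 at 402 bp upstream and 7.88 at 247 bp downstream. The next peak, 3855 bp upstream, had 5.58. The nearest such start, that of Mon2, was 85.1 kb from the hairpin peak. The other 4 let-7 members, which share the seed printed above, had their nearest peak at 3733 bp (Mirlet7c-2, signal 5.68), 5685 bp (Mirlet7a1, 3.75), 6877 bp (Mirlet7g, 7.32) and 59546 bp (Mirlet7f-2, 2.61).

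**Figure D4:**
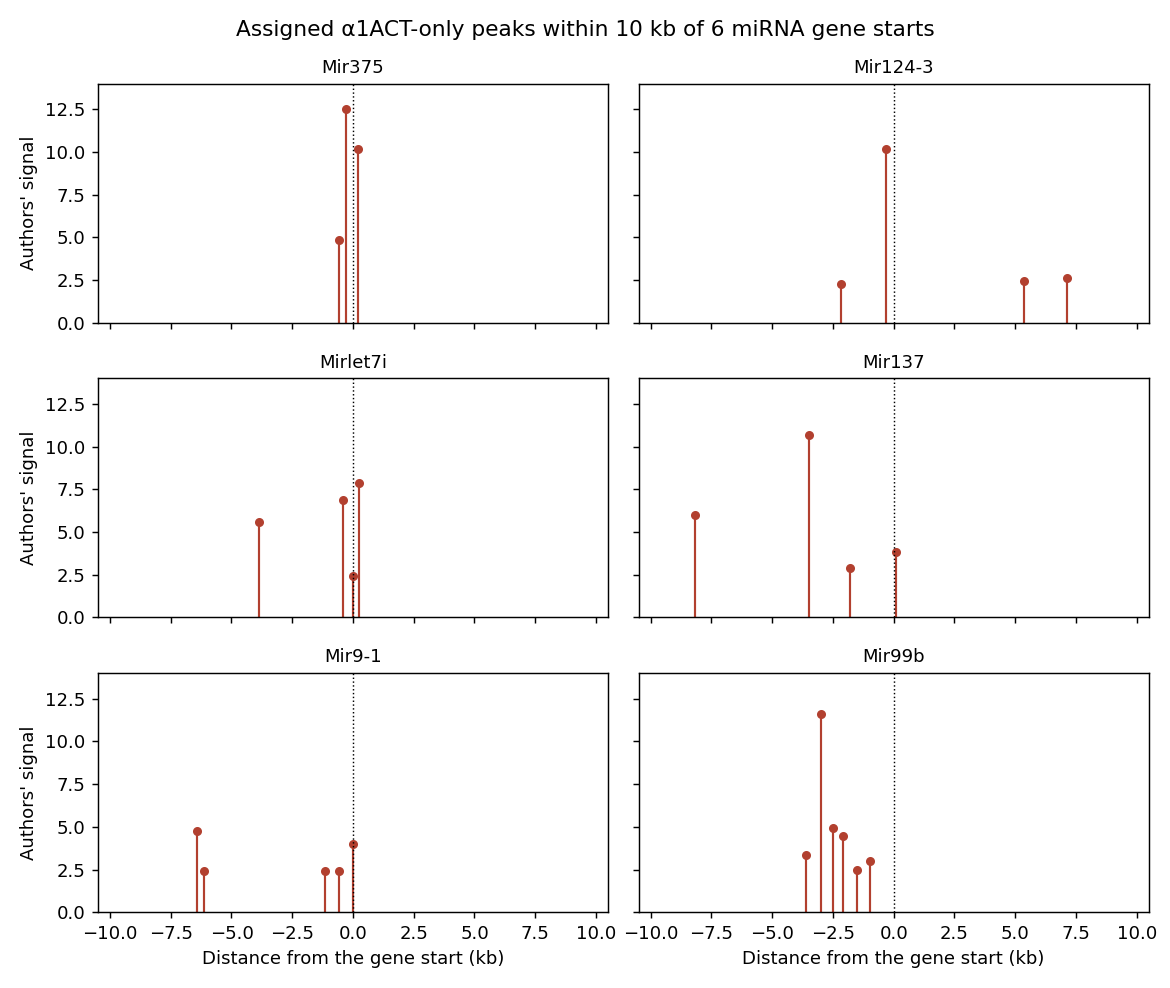
Assigned α1ACT-only peaks within 10 kb of the start of 6 microRNA genes, chosen with their values in view; height is the authors' signal and the dotted line the annotated start (x axis, kb, negative is upstream). Mir375 and Mirlet7i have peaks on both sides of the start, Mir124-3 its highest just upstream, Mir137 and Mir99b theirs near 3 kb upstream, at 10.7 and 11.6, and Mir9-1 only peaks of 4.73 or less.

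Several genes carried their signal inside or beside a host. Mir25, of the growth-linked miR-106b-25 cluster in an intron of the replication helicase gene Mcm7, had a single peak, over the hairpin (chr12:21364987-21365042), of signal 8.93. The nearest such start, that of Cops6, was 3.97 kb away. Mir152, in Copz2, had 4.42 over the hairpin with the Copz2 start 572 bp away. Mir1199 had 7.98 at 454 bp downstream and 6.54 at 235 bp upstream, and lies within RGD1310262, whose start was 252 bp from the upstream peak. Mir3562 and Mir3594, both in Cep131, had 5.68 and 5.58, and Mir675, made from the imprinted H19 RNA, had 4.84 at 959 bp downstream. Of the 49 genes with a peak near the start, 16 lay within the span of another gene of the table (32.7%), as did 61 of the 199 without one (30.7%).

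Signals varied among the other genes with a peak within 1000 bp. Mir193b had 6.01 at 789 bp upstream, Mir193 3.05 just upstream of its start and its antisense neighbour Mir3549 4.53 at 170 bp upstream. Mir34b, a target of the tumour suppressor p53, had a single peak of 5.58 at 0.183 kb upstream, and Mir3555 one of 6.30 at 0.144 kb upstream. Over or beside their hairpins, Mir1956 had 4.35 and Mir187 3.00. Mir182, a microRNA of sensory cells, had 3.64 at 109 bp downstream, Mir344g 3.73, Mir3577 3.31, Mir760 3.88, Mir3542 3.18, Mir3566 3.12, Mir378, in the co-activator gene Ppargc1b, 2.76, Mir190 2.37 and Mir344i 2.22. Mir190, Mir344i and Mir3542 are among 9 members listed at more than 1 place of the genome, so their peaks are uncertain.

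The members were also sorted by lists of families, which were chosen with earlier results of these data known. Of 17 neuronal members, 6 had a peak within 1000 bp (35.3%), and of 7 neuroendocrine and nerve growth factor-responsive members, 3 did (42.9%): Mir375, Mir212 and Mir34b. Mir212 is in both lists. Mir222, which nerve growth factor is known to raise in PC12 cells, was at the other end, its nearest peak 106657 bp away, and that of its partner Mir221 was 48746 bp away. The let-7 family had 1 of 5, the miR-17-92 cluster and its paralogs 1 of 5 and the imprinted Dlk1-Gtl2 cluster 1 of 5, Mir154, with a signal of 2.79; the highest of that cluster within 10 kb was Mir337 with 2.99. The cluster has 45 genes in RefSeq, of which 5 were members. Over all members the share was 19.8%, and the lists are too short to set apart from it.

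Families that mark other cell types were counted in the same way. Muscle genes had 1 of 7, Mir133a with 3.18 at 886 bp upstream. Blood cell genes had 2 of 6, Mir150 with 2.67 and Mir155hg with 2.28. Epithelial genes had 1 of 3, Mir203, sensory genes 1 of 2, Mir182, and vascular genes 1 of 1, Mir145, a smooth muscle microRNA, with 5.56 at 445 bp downstream. Embryonic stem cell genes had 0 of 2, glial genes 0 of 2, the X-linked testis cluster 0 of 2 and the liver gene Mir122 had its single peak 6199 bp upstream, with 5.21. Within 10 kb the glial Mir219-2, a microRNA of oligodendrocytes, reached 12.2 at 6724 bp upstream. In their own lists the highest within 10 kb were Mir142 with 5.38, Mir133b with 3.18 and Mir295-1 with 3.17. Mir465 of the testis cluster had no peak within 10 kb.

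Most peaks assigned to microRNA genes were far from them. Of the 3346 peaks, 2742 (81.9%, 80.6 to 83.2) were distal intergenic, against 74.4% (74.2 to 74.6) of the peaks of other genes, and the median distance to the start was 194 kb, against 118 kb. In promoters lay 113 (3.38%), in introns 467 (13.96%) and in exons 18 (0.538%). The highest signals of all were distal: Mir874 was assigned a peak of 42.3 at chr17:9380267-9380322, 158 kb from its start, with peaks of 18.2 and 10.9 less than 1 kb from it. Mir3075 was assigned 17.7 at 22.0 kb, in intron 3 of 23 of its host Zmiz1, and Mir344b-1 14.6 at 184 kb. Mir99b, which is made with let-7e and miR-125a from a single cluster, had 11.6 at 2982 bp upstream (chr1:60620892-60620947), among 6 peaks between 960 and 3609 bp upstream.

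A few isolated genes took many peaks. Mir344b-1 was assigned the most, 6.07% of the 3346, followed by Mir1297 with 166, Mir3556b with 163, Mir124-2 with 121 and Mir592 with 105. These 5 held 22.7% of the members' peaks, whereas 71 members had a single peak (28.6%, 23.1 to 34.7). Among other genes 2747 had a single peak (19.4%, 18.8 to 20.1). The median was 4 peaks per gene in both sets. For Mir592, 65 of its peaks lay in its host Grm8, a glutamate receptor gene. Introns or exons of 86 genes held 14.5% of the members' peaks, and 368 of these were in a gene that spans the microRNA gene itself. The genes that held the most of these peaks after Grm8 were Sgcz with 44, Egfem1 with 35, and Kcnip4 and Gabra3 with 28 each. Holding a peak does not make a gene the host: the peaks in Kcnip4 were assigned to Mir3565, which lies within the span of Slit2. Besides Mir222, the members farthest from any assigned peak were Mir29b2 at 162726 bp, Mir3084c at 95854 bp, Mir199a2 at 85127 bp and Mir361 at 80240 bp. One group of at least 3 member genes stood within 10 kb of each other, Mir3582, Mir133a and Mir1 on chromosome 18. They were assigned 6 peaks of at most 4.73, but only 1 peak, of signal 3.18, lay within 10 kb of the group. Genes without an assigned peak could not enter such a group.

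Members with a peak near the start had hairpins richer in G and C. The median was 57.0% in the 42 of 49 genes with a peak within 1 kb whose hairpin was in RefSeq, against 51.2% in 75 of 86 with the nearest at 1 to 10 kb and 47.4% in 102 of 113 with the nearest beyond that. The ranges overlapped, from 35.3 to 74.2%, 32.3 to 81.3% and 30.9 to 74.4%. Mir1199 (74.2%), Mir6328 (70.1%), Mir615 (69.6%) and Mir375 (69.3%) stood at the upper end of the first group, Mir190 (35.3%) and Mir9-1 (40.4%) at its lower end. Base composition also sets how well a fragment is amplified and sequenced, and its part in the result was not tested. On 5 chromosomes no member had a peak within 1000 bp: X with 22 members, 13 with 14, 5 and 15 with 10 each, and 16 with 3. Of the other genes, 19.5% had one on X, 41.8% on 13, 27.5% on 5, 45.6% on 15 and 46.2% on 16.

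**Figure D5:**
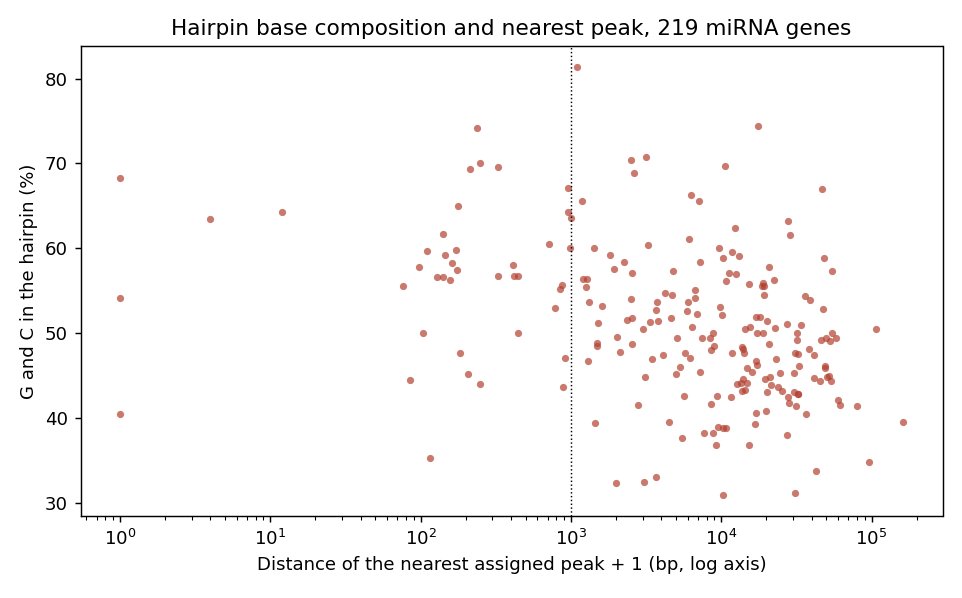
Share of G and C in the hairpin (y axis, %) by distance of the nearest assigned peak plus 1 (x axis, bp, log axis) for the members with a RefSeq hairpin; the dotted line marks 1000 bp. The points shift down to the right, with medians of 57.0% within 1 kb and 47.4% beyond 10 kb, over wide and overlapping ranges.

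The other lists had no peak near a member. Within 10 kb of a member start lay 0 of 81 peaks of the α1ACT M2 list, which allows a share of up to 3.70%, 0 of 272 of the empty-vector 1804 list (up to 1.10%) and 0 of 244 of the empty-vector M2 list (up to 1.23%). The nearest in each was one site on chromosome 11, 50.3 kb from Mir6323, with signals of 95.9, 139 and 114. In the α1ACT 1804 list 310 of 161730 peaks lay within 10 kb of a member start, and 71 (0.0439%) within 1000 bp. Lists as short as the others cannot show shares this small. The lowest signal in those 3 lists was 53.6, 14.03 and 19.02, above each of the 61 peaks near a microRNA start. Since signals may be scaled differently in each list, the absence of a peak there does not show that these peaks depend on α1ACT.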

How the data were processed

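ChIP-seq was done on 6 libraries of rat PC12 cells, of which 4 have a peak list. The submitters' processing notes list BWA 0.7.5a, HOMER, ChIPseeker, DiffBind and FastQC 0.11.2, with build rn5 and no roles. Which caller settings were used, and whether the inputs served as controls, is not given in the labels or headers. The authors deposited a signal and a −log10 q-value per peak, in narrowPeak columns; how the signal was scaled is not stated. They also deposited a table that gives each α1ACT-only peak its nearest gene, its signed distance to the start and the feature it lies in. Read depth is unknown. The table was joined to the α1ACT 1804 list by chromosome and start; every row matched. Shares have exact (Clopper-Pearson) 95% intervals, medians order-statistic intervals, and a count of 0 the limit of 3 counts. All are for counting error only. Counting steps were tested on simulated data. Python 3.11.15, pandas 2.3.3 and scipy 1.17.1 were used.

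Near means within 1000 bp. Sequences were matched by gene ID, with symbols as in the table. Members, lists and tests were chosen with earlier results of these data known. Named genes were those with a peak over the span or within 200 bp of the start, the 15 with the highest signal within 1000 bp, the 5 with the highest signal, the most peaks or the farthest nearest peak, and in each of 14 lists the member with the nearest and with the highest peak within 10000 bp; others named, such as the remaining members of a list or of a group described, were chosen after their values were seen. Alternatives varied the distance, the signal limit, the merging of peaks within 200 bp, the assignment, the genes compared and the way hosts were found.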

Additional observations from a re-analysis of the deposited data

How the results depend on the processing

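Of the 248 members, the 49 with a peak near the start became 38 at 500 bp (15.3%, against 38.8% of other genes). They became 80 at 3000 bp (32.3%, against 52.6%) and 135 at 10000 bp (54.4%, against 72.3%). With the upper 50% of peaks by signal 35 of the 248 remained, against 5086 of the 14390 genes of the table (35.3%). With the upper 10% it was 14 of the 248, against 2833 of the 14390 (19.7%). Counting any peak of the list, whichever gene it was assigned to, gave 56. The same count is not given for other genes, so the difference from them is not known at this setting. The 49 became 48 without Mir155hg and 46 without members listed at more than 1 place, both settings added after seeing the data. The 61 peaks near a start became 58 when peaks within 200 bp were merged, 44 at 500 bp and 113 at 3000 bp. The median distance of 194 kb became 8.86 kb for the nearest peak of each gene. The median signal of 2.99 became 3.73 within 1000 bp and 5.07 for the highest peak of each gene. Taking the nearest or the highest peak of each gene moves a median by construction. The higher median within 1000 bp is a difference between peaks, and its cause was not tested. The share near the start, in microRNA genes minus other genes, was -23.9 percentage points. It was -4.97 with upstream peaks only, -5.24 against the 4 other genes no longer than 200 bp, which are too few to compare, and 9.21, the opposite direction, against other genes no longer than 1000 bp, a setting added after seeing the data. Genes whose introns or exons held member peaks numbered 86, and other genes whose span holds a member numbered 71. No paired analysis was possible because each group has 1 library and no result comes from a test. Unknown depth limits the weak peaks, and absence of a peak does not show absence of binding.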
